A study of Mus musculus with 2 samples.

Results

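B cells of the mouse aorta were examined in the 58 barcodes to which the authors' deposited tables give the class B Cells, 30 in the diabetic library and 28 in the control library. They were a small part of 5584 annotated cells, of which 2524 were diabetic and 3060 control. The diabetic group was male C57BL/6 mice of the genotype Apoe-/-, an atherosclerosis-prone strain without apolipoprotein E, made diabetic from 6 weeks of age by 5 daily injections of streptozotocin (55 mg/kg each), a toxin of the insulin-producing beta cell. The control group was Apoe-/- males of the same age given citrate vehicle. All mice lacked Apoe in every tissue, were followed for 10 weeks and were 17 weeks old at sampling. Digested aortae of 4 mice per group were pooled, sorted for viable, calcein-positive cells and made into 1 droplet library per group with the 10x Genomics 3' v2 chemistry. With 1 library per group there is no replicate error: differences between the libraries and effects of diabetes cannot be told apart, no p-value is given, and every 95% interval covers counting error only.

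A B cell recognises antigen through a receptor built from an immunoglobulin heavy chain and a kappa or lambda light chain, which signals through the partner proteins encoded by Cd79a and Cd79b. Naive follicular B cells carry IgM and IgD together, encoded by Ighm and Ighd, and the IgE receptor CD23, encoded by Fcer2a. Plasma cells, the antibody-secreting end stage, devote most of their transcripts to immunoglobulin and make the J chain, encoded by Jchain, which joins IgA and IgM into polymers. In atherosclerotic mouse arteries B cells lie mainly in the adventitia, and the innate-like B-1 lineage is known for natural IgM against oxidised lipids.

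Promoters are shown for 3 genes on which the results turn: Cd79a, the receptor partner carried by most cells of the class, and Vpreb3 and Igll1. Igll1 is a surrogate light chain gene and Vpreb3 a relative of such genes, and they occurred together in 1 diabetic cell of the class. Igll1 had UMIs in that cell only, whereas Vpreb3 had UMIs in 4 diabetic and 4 control cells. The letters are those of RefSeq on GRCm38.p6, in a window across RefSeq's start of the gene, 5′ to 3′. For Vpreb3 that start lies inside the GENCODE gene, which runs on chromosome 10 from 75943057 to 75949657. Capitals mark matches on either strand to CAAGGGA, the core of the site known in the Cd79a promoter for the early B cell factor EBF1, to CCCNNGGG, the core of the palindrome that EBF1 prefers, or to ATGCAAAT, the octamer bound by Oct factors.
Cd79a promoter, chr7:24897247-24897546, strand +: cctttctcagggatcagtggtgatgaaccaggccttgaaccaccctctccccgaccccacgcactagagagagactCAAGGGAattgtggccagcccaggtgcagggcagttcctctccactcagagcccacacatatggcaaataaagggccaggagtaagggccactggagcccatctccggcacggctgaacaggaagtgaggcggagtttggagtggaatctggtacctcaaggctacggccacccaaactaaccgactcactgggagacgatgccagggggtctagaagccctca
Vpreb3 promoter, chr10:75948050-75948349, strand +: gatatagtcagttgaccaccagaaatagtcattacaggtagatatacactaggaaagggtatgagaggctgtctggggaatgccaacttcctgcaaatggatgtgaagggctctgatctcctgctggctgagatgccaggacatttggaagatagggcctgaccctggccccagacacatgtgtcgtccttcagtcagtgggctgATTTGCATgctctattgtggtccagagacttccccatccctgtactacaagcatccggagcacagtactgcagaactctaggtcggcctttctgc
Igll1 promoter, chr16:16863936-16864235, strand -: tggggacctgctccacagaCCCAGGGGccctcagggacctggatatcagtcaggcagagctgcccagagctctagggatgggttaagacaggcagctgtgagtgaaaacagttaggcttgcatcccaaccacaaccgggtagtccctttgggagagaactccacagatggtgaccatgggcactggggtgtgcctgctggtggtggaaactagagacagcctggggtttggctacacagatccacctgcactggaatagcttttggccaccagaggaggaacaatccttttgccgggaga
Each promoter held 1 match: CAAGGGA in Cd79a, the octamer in Vpreb3 (on the other strand) and CCCNNGGG in Igll1. Among 32851 mouse promoters of the same length 5.06% held CAAGGGA, 13.7% held CCCNNGGG and 1.74% held the octamer, with no overlap between matches in the 3 shown. A match describes letters only. Of 49 B cell, plasma cell and early B cell genes looked up, 40 had a promoter in the table, and Cd79b, Ms4a1, Ighm and Ighd were not among them.

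On GRCm38 (mm10) the defining genes are annotated on chromosome 7 from 24897381 to 24902197 (Cd79a), chromosome 11 from 106311341 to 106314762 (Cd79b), chromosome 19 from 11249675 to 11266241 (Ms4a1, which encodes CD20) and chromosome 12 from 113418558 to 113422730 (Ighm, a constant region gene). The values are unique molecular identifiers (UMIs) counted per gene near the 3′ end of transcripts, so they do not separate isoforms, and membrane and secreted immunoglobulin are not told apart.

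The B Cells were shallow. Diabetic cells held 762 to 5192 UMIs (median 1966.5) and 413 to 1256 genes, against 645 to 20335 UMIs (median 1931.5) and 355 to 1611 genes in control cells. The class summed to 68830 UMIs in the diabetic library and 87918 in the control library. A single control cell, described below as plasma-like, held 23.1% of the control sum. The median mitochondrial share per cell was 3.40% in diabetic and 2.93% in control cells. Haemoglobin made up 0.132% of diabetic and 0.00682% of control B cell UMIs, and occurred in 28 of 30 diabetic and 5 of 28 control cells. In all annotated cells it made up 1.14% and 0.217%, and its part in the results below was not tested. Both libraries shared 15 barcode sequences, of which 1 belonged to a control B cell and none to a diabetic one.

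Most cells of the class carried its defining markers. Cd79a had 183 UMIs in 27 of 30 diabetic cells (2659 CPM, UMIs of the gene scaled to the class total; 2287 to 3073) and 206 UMIs in 26 of 28 control cells (2343 CPM, 2034 to 2686). The level of Cd79b was 799 CPM in diabetic and 853 CPM in control cells, and that of Ms4a1 was 639 CPM and 887 CPM. At least 3 of the 4 markers had a UMI in 19 diabetic and 22 control cells, and all 4 in 7 diabetic and 13 control cells. The 2 diabetic cells with none of them, of 762 and 931 UMIs, carried 9 UMIs of T cell markers and 11 UMIs of macrophage markers in turn. The 1 control cell with none, of 645 UMIs, had 29 UMIs of the chemokine gene Ccl5 and 3 of the T cell receptor gene Trbc2. These 3 cells stood at the shallow end of the class and stayed in the main values.

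Depth and free RNA set a floor under such counts. After each cell was thinned to 1000 UMIs, with 3 diabetic and 2 control cells too shallow to enter, Cd79a was expected in 89.0% of diabetic and 93.4% of control B Cells, and Ms4a1 in 38.3% and 55.7%. Without thinning the shares with a Cd79a UMI were 90% and 92.9%, and those with an Ms4a1 UMI 46.7% and 71.4%. In VSMCs-2, a smooth muscle class that should lack both genes, the thinned share with Cd79a was 0.0648% in diabetic and 0.228% in control cells, at median depths of 6523 and 5547 UMIs, and Ms4a1 was at 0 in both. Both genes stood far above that level in B Cells.

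**Figure D1:**
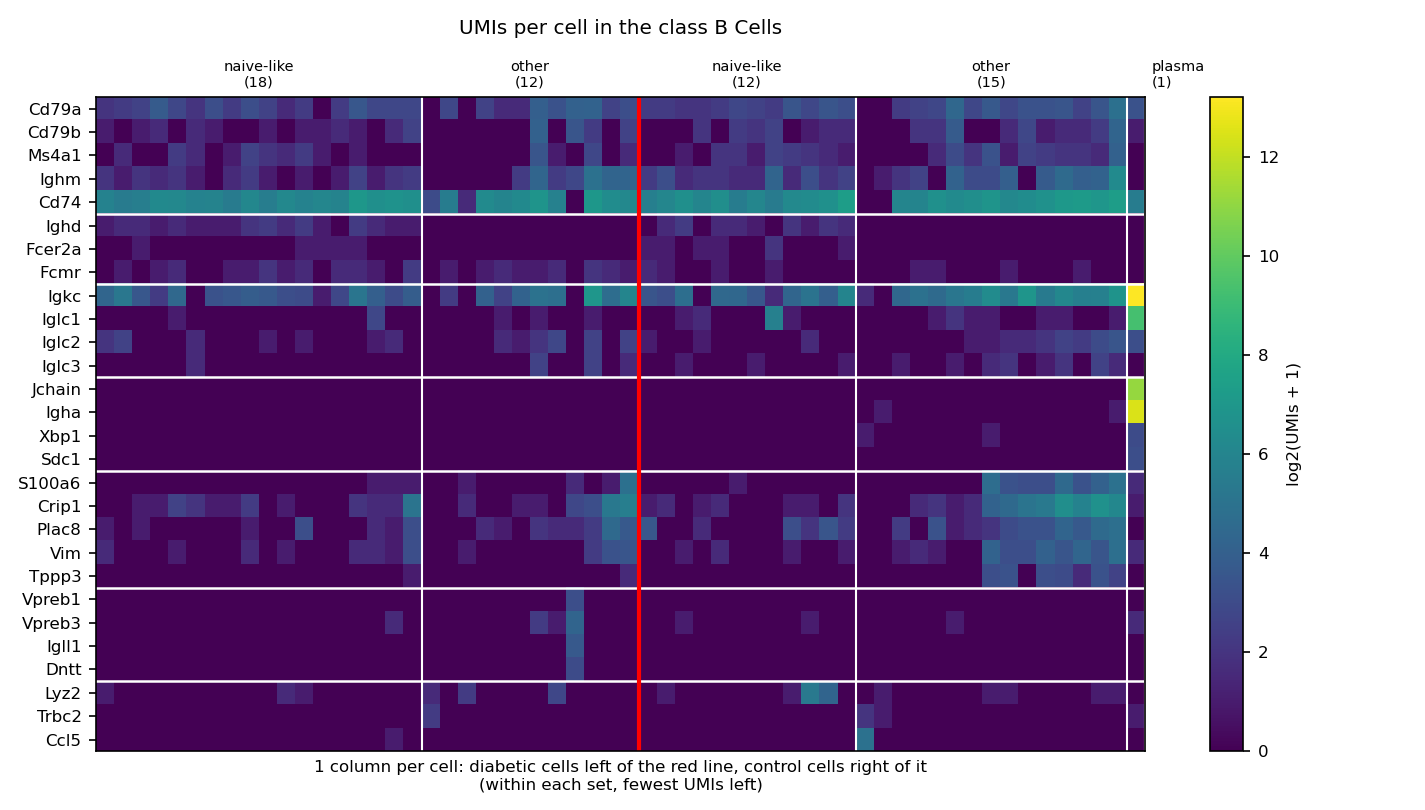
UMIs of selected genes (rows, log2 of UMIs + 1 in colour) in each of the 58 cells (columns), with diabetic cells left and control cells right of the red line, split into naive-like, other and plasma-like cells. Cd79a and Cd74 run through nearly all columns, Jchain fills the last control column only, and S100a6, Crip1, Plac8 and Vim stand out together in 8 control cells, 7 of them with Tppp3, and in the last diabetic cell.

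Among all genes with at least 10 UMIs in the class in each library, those that stood highest over every other class of at least 50 cells were B lineage genes. Mzb1, an endoplasmic reticulum chaperone cofactor of immunoglobulin assembly, was 21.2-fold above the next class in the diabetic and 43.0-fold in the control library. Ms4a1 followed at 20.7-fold and 35.7-fold, and Cd79a at 17.8-fold and 19.97-fold. Further genes of the top 15 included Fcrl1 and Fcrla, Fc receptor-like genes of B cells, Cd79b, the class II peptide exchange gene H2-DMb2, Ighd, the light chain genes Igkc, Iglc3 and Iglc1, the survival receptor gene Tnfrsf13c (the BAFF receptor), the coactivator gene Pou2af1 and the gene model Gm31243. The authors' classes were made from the same transcripts, so this ranking describes the class and tests nothing. The next highest class was T cells or Mac, the macrophage class, for each of the 15. For Mzb1, Ms4a1 and Cd79a it was T cells in the diabetic and Mac in the control library, where 13 T cells were too few to enter. Their folds are thus not comparable between the libraries. Of 65 control Mzb1 UMIs 26 lay in the plasma-like cell.

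How frequent B cells were depended on how they were counted. By the authors' class they made up 1.19% of annotated diabetic cells (0.803 to 1.69%) and 0.915% of annotated control cells (0.609 to 1.32%), a difference of 0.274 percentage points whose interval held 0 (-0.264 to 0.850). Counted by markers, barcodes with at least 3 of the 4 defining genes numbered 55 of 3458 in the diabetic library (1.59%) and 92 of 4215 in the control library (2.18%), a difference of -0.592 points (-1.201 to 0.0277). Within annotated barcodes, a count added after the data were seen, they were 1.47% and 2.32%, a difference of -0.854 points (-1.57 to -0.128). Among B, T and NKT classes together, B Cells were 30 of 141 diabetic cells (21.3%) and 28 of 73 control cells (38.4%). That last share moves with the T cells, of which there were 60 in the diabetic and 13 in the control library. The viability sort and the digestion can set all such shares.

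**Figure D2:**
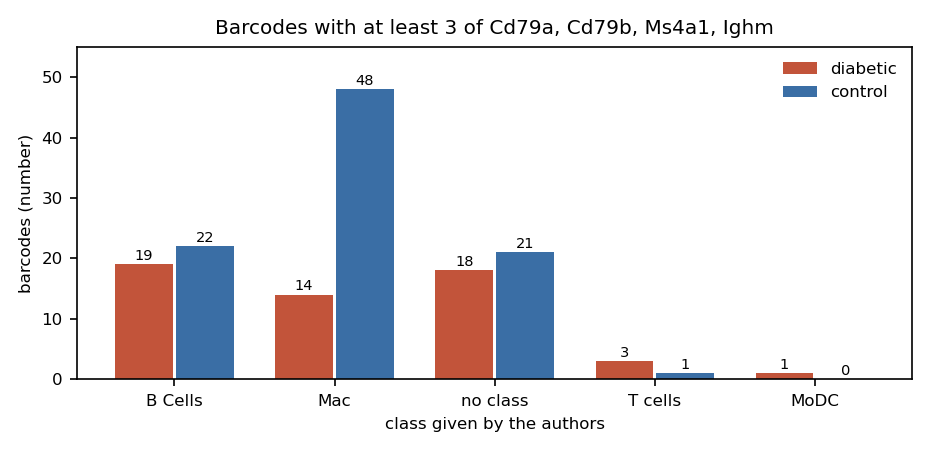
Number of barcodes with a UMI of at least 3 of Cd79a, Cd79b, Ms4a1 and Ighm, by the authors' class, in the diabetic (left bar) and control (right bar) library. In Mac there were 14 diabetic and 48 control barcodes, so that more marker-positive control barcodes lay in Mac than in B Cells.

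The marker-positive barcodes outside the class lay mostly in Mac, with 14 of 229 diabetic (6.11%, 3.38 to 10.0%) and 48 of 510 control cells (9.41%, 7.02 to 12.3%), and among barcodes without a class, with 18 and 21. These Mac barcodes were deep. Their median was 6910.5 UMIs in the diabetic and 7919.5 in the control library, against 4015 and 4241.5 UMIs in the other Mac cells, and they carried 51 to 291 and 40 to 484 UMIs of macrophage markers. The B Cells carried at most 13 such UMIs in a diabetic and 60 in a control cell. No doublets were removed, and the part of doublets in these counts was not tested. Ighm by itself marked the class less sharply than the other genes, since 121 of 229 diabetic and 299 of 510 control Mac cells had an Ighm UMI, against 18 and 56 with Cd79a.

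Most cells of the class were naive-like or could not be assigned. A cell was called plasma-like with at least 4 of 15 plasma cell markers, Jchain among them, and any other cell with a UMI of Ighd or Fcer2a was called naive-like. This gave 18 naive-like, 12 other and 0 plasma-like diabetic cells, and 12 naive-like, 15 other and 1 plasma-like control cells. Naive-like cells had a median of 1903.5 UMIs in the diabetic and 1672.5 in the control library, and other cells 2136.5 and 2841 UMIs. Of the naive-like cells 8 diabetic and 4 control ones rested on 1 UMI of both genes together, so a cell without either may still be naive. Ighd had 33 UMIs in 17 diabetic cells and 20 UMIs in 9 control cells, and in VSMCs-2 it had 0 and 2 UMIs. Thinned to 1000 UMIs, the share of B Cells with Ighd was 44.4% in diabetic and 25.98% in control cells, and without thinning 56.7% and 32.1%.

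Within naive-like cells Ighm was lower in the diabetic library. The level of Ighm in naive-like cells was 904 CPM in the diabetic library (35 UMIs in 15 of 18 cells) and 2624 CPM in the control library (60 UMIs in 12 of 12 cells), a ratio of 0.345 (0.220 to 0.532). The control naive-like cells included 1 lambda cell that held 18 of those 60 UMIs. Fcmr, the receptor for IgM itself, had 21 UMIs in 12 diabetic and 5 UMIs in 4 control naive-like cells, a ratio of 2.48 with an interval that held 1 (0.911 to 8.42). Cd79a stood at 2532 CPM and 2930 CPM, a ratio of 0.864 (0.627 to 1.198), and Ighd, which defines these cells, is not compared.

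The only plasma-like cell was a control cell with IgA transcripts. It held 20335 UMIs but 996 genes, with 77.4% of its UMIs from immunoglobulin genes, and 11 of the 15 plasma markers. Igkc gave 9497 UMIs, the IgA heavy chain gene Igha 5567, Jchain 2212, the lambda gene Iglc1 636 and Slpi, a secreted protease inhibitor, 38. The plasma cell surface gene Sdc1 (syndecan-1) had 8 UMIs, Mzb1 26, the disulfide isomerase gene Txndc5 10, Xbp1, a transcription factor of secretory cells, 7 and Derl3, of protein export from the endoplasmic reticulum, 3. Ms4a1, which plasma cells lose, and Ighm were at 0, while Cd79a had 9 UMIs and Cd74 46. No other cell came near: the next highest had 3 plasma markers, in 2 diabetic and 3 control cells, and outside this cell Jchain had 0 UMIs and Igha 2 in the whole class. In the diabetic class Jchain and Igha had 0 of 68830 UMIs. The limit of 3 UMIs used for a count of 0 is 43.6 CPM, and the exact Poisson upper bound is 53.6 CPM. Free RNA of these genes was low in VSMCs-2, where Igha stood at 0.699 CPM in diabetic and 7.54 CPM in control cells. With 0 and 1 cells no difference between the libraries can be read.

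Light chains were mostly kappa. Among cells with at least 3 light chain UMIs, 80% or more of them of 1 type, 21 diabetic cells used kappa and 1 lambda, and 4 were mixed, whereas 24 control cells used kappa, 2 lambda and none was mixed. At 90% the mixed cells numbered 8 diabetic and 5 control. The control lambda cell with most UMIs had 53 of Iglc1 and 2 of Igkc, together with 3 UMIs of Fcer2a and 18 of Ighm. Iglc1, Iglc2 and Iglc3 are near-identical copies, so their split is uncertain, and the part of free RNA in mixed cells was not tested. Among the switched heavy chain genes, Igha and Ighg3 were the only ones to reach 10 UMIs. Ighg3 had 0 UMIs in the diabetic library and all of its 14 control UMIs in a cell of 3444 UMIs that had 117 UMIs of Igkc, 9 of Cd79a, 5 of Ms4a1 and 0 of Ighm.

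**Figure D3:**
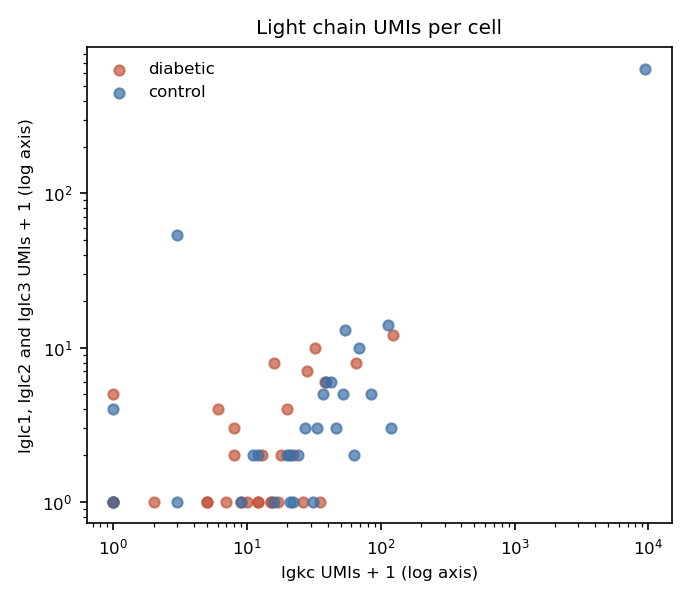
UMIs of the lambda constant genes Iglc1, Iglc2 and Iglc3 together (y, plus 1, log axis) against Igkc UMIs (x, plus 1, log axis) in each cell, diabetic and control. Most cells lie along the Igkc axis, the control plasma-like cell stands alone at the top right with 9497 Igkc UMIs, and a control lambda cell stands at the left with 53 Iglc1 UMIs.

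A set of cells without Ighd or Fcer2a carried S100a6, Crip1, Vim and Plac8 together, and most of them were control cells. They were singled out after their values were seen, as cells with at least 5 UMIs of S100a6, a calcium-binding protein gene: 1 of 30 diabetic and 8 of 28 control cells. The diabetic cell had 5192 UMIs in all, with 28 of S100a6, 50 of Crip1 (a LIM domain protein gene), 10 of Vim (vimentin), 12 of Plac8 and 18 of Ighm. The 8 control cells had 2841 to 6214 UMIs and together held 127 of 130 control UMIs of S100a6, 431 of 451 of Crip1, 115 of 126 of Vim, 108 of 162 of Plac8, 48 of 48 of Tppp3 (a tubulin-binding protein gene) and 168 of 261 of Ighm. Ighd and Fcer2a were at 0 in all of them. Plac8, Cd9 and the zinc finger gene Zbtb32 were on the list of B-1 markers. Zbtb32 had 2 UMIs in the diabetic cell and 3 in the control cells, and the tetraspanin gene Cd9 had 0 and 11, so few that the cells are given no lineage name. S100a6 is also abundant in stromal classes, at 3093 CPM in diabetic and 2725 CPM in control VSMCs-2 and at 2767 CPM and 2412 CPM in the fibroblast class Fib-2. Smooth muscle markers summed to 16 diabetic and 18 control UMIs over all B Cells, at most 3 in a cell, and fibroblast markers to 11 and 15, at most 2 in a diabetic and 3 in a control cell. Their part in the S100a6 values was not tested.

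The split by library was sharp for S100a6 and softer for Crip1. Among cells of at least 3000 UMIs other than the plasma-like one, 1 of 7 diabetic and 7 of 8 control cells had 5 or more S100a6 UMIs. With a cut of at least 15 Crip1 UMIs in place of S100a6, the cells numbered 3 diabetic, with 33 to 50 Crip1 UMIs, and the same 8 control cells, with 17 to 102. The 2 diabetic cells added this way had 1 S100a6 UMI each, and 1 of them had an Ighd UMI. Below that cut no cell exceeded 8 Crip1 UMIs in the diabetic and 3 in the control library. All these cells are among the deepest of the class, and each library is 1 pool, so the library and diabetes cannot be told apart here.

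**Figure D4:**
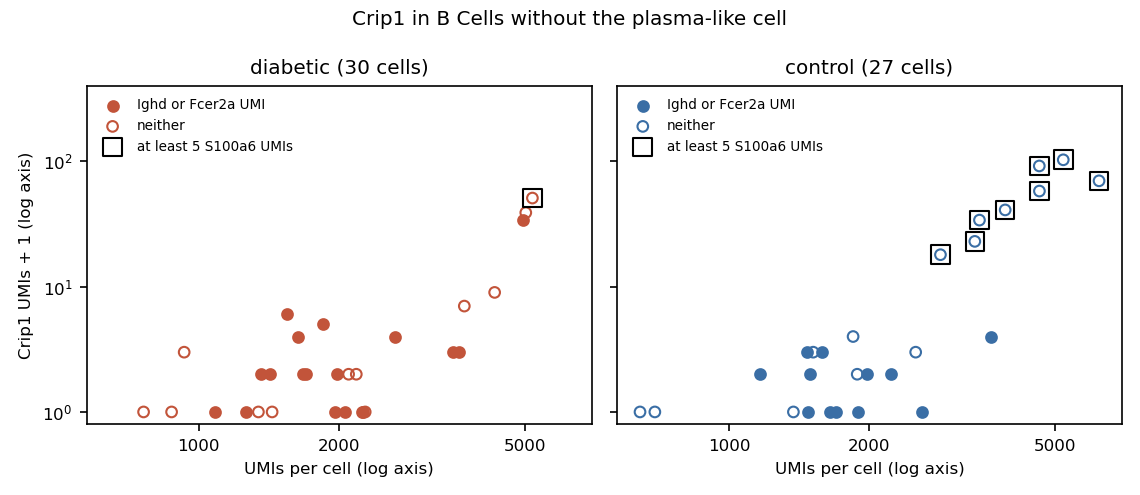
Crip1 UMIs (y, plus 1, log axis) against total UMIs (x, log axis) for 30 diabetic cells (left panel) and 27 control cells (right panel), without the plasma-like cell. Filled points have a UMI of Ighd or Fcer2a and squares mark at least 5 S100a6 UMIs. In the control panel 8 unfilled squared points stand apart from 17 to 102 Crip1 UMIs, and in the diabetic panel 3 points reach 33 to 50.

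Another diabetic cell carried genes of developing B cells. It had 3710 UMIs with 18 of Vpreb3, 12 of Igll1, 8 of Vpreb1 and 2 of Vpreb2, which encode the surrogate light chain and its relatives, 7 of Dntt (terminal transferase), 3 of Sox4 and 1 of the recombinase gene Rag2. Vpreb1 and Vpreb2 are near-identical, so their split is uncertain. It also had 16 UMIs of Cd79a, 10 of Cd79b, 10 of the transcription factor gene Ebf1 and 6 of Ighm. Igkc, the lambda genes, Ms4a1 and the class II chaperone gene Cd74 were at 0 in it, and every other diabetic cell of the class contained Cd74. In all, 9 of 12 early B cell markers had a UMI in this cell. No other cell of the class B Cells in either library had more than 1, and cells of other classes were not counted. Dntt by itself is no B cell mark in these libraries, since 31 of 229 diabetic and 24 of 510 control Mac cells had a UMI of it, but Igll1 was at 0 in Mac and VSMCs-2 of both libraries. This 1 cell alone gave Igll1 its level in the diabetic class, at least 5.11-fold above control against a floor of 3 UMIs per library.

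Diabetic over control ratios of summed B cell transcripts were then compared, with a gene counted as higher or lower when its CPM differed at least 2-fold. Of 1443 genes with at least 10 UMIs in both libraries together, 181 (12.5%) were higher and 116 (8.04%) lower, with a median log2 ratio of 0.22. Scaling with trimmed means, which shifted that median to 0.01, turned the split to 111 higher and 171 lower. Without the plasma-like cell, 97 (6.92%) of 1401 genes were higher and 181 (12.9%) lower, with a median of -0.08. Leaving out 1 control cell thus moved the median of all genes. Ratios are given for 58 cells and, for some genes, for the 57 others. The control total fell from 87918 to 67583 UMIs without that cell. A gene with no UMI in it thus has a lower ratio in 57 cells, also where only the value for 58 cells is printed.

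Genes higher in diabetic B Cells, leaving aside genes of which 1 cell held over 25% of the diabetic UMIs, were led by Fcmr. It had 35 UMIs in 21 of 30 diabetic cells and 9 UMIs in 8 of 28 control cells, or 508 CPM and 102 CPM, a ratio of 4.97 (2.34 to 11.8) and of 3.82 (1.80 to 9.03) in 57 cells. Bank1, a scaffold of B cell receptor signalling, had 25 UMIs in 17 diabetic and 10 in 10 control cells, a ratio of 3.19 (1.48 to 7.45) and of 2.45 in 57 cells. Fcmr was on the naive-like list as well. Outside naive-like and plasma-like cells it had 14 diabetic and 4 control UMIs, a ratio of 5.19 (1.63 to 21.7). Those cells include 1 diabetic and 8 control cells with at least 5 S100a6 UMIs, so the sets differ in make-up. Without the plasma-like cell and these S100a6 cells, Fcmr stood at 2.54 (1.11 to 6.80) and Bank1 at 1.92 (0.755 to 5.79). The other 8 were Tpt1, a growth-related gene, at 2.13 (1.75 to 2.59), the Hsp70 cofactor gene St13 at 5.11, the interferon-inducible gene Ifi27l2a at 2.66, the cold-inducible RNA binding gene Rbm3 at 2.39, the G protein subunit gene Gng5 at 2.82, the splicing genes Snrpe at 2.62 and Hnrnpa1 at 2.41, and the dynein-associated gene Nudc at 4.09. In 57 cells 7 of the 10 stayed at 2-fold or more, while Tpt1 stood at 1.70, Rbm3 at 1.99 and Hnrnpa1 at 1.92. All 10 kept a ratio above 1 there, but this was fixed by the choice of genes and tests nothing. Each was picked at 2-fold or more, and the plasma-like cell held 23.1% of the control UMIs. Leaving that cell out lowers the control total by too little to bring such a ratio down to 1. Within naive-like cells, where 7.24% of 635 genes were higher and 15.3% lower, all 10 lay above 1, and 4 were at 2-fold or more. They ran from 1.06 for Ifi27l2a to 7.09 (1.05 to 303.1) for Nudc, with 12 and 1 UMIs. Ifi27l2a stood at 0.723 (0.335 to 1.57) there without the cell of 33 Crip1 UMIs.

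Lower genes were led by the set described above. Tppp3 had 3 UMIs in 2 diabetic cells and 48 UMIs in 7 control cells, a ratio of 0.0798 (0.0159 to 0.248). S100a6 had a ratio of 0.344 (0.230 to 0.503), Vim of 0.436 (0.301 to 0.621) and Crip1 of 0.462 (0.384 to 0.553). In 57 cells they stood at 0.268, 0.340 and 0.356. Outside the cells rich in Crip1 the intervals of Crip1 and Vim held 1, but these cells were picked by their Crip1 count after the data were seen. The Crip1 ratio in the remaining cells was thus set in part by the cut and tests nothing. Without the plasma-like cell and the cells of at least 15 Crip1 UMIs, Crip1 had 42 UMIs over 27 diabetic and 19 UMIs over 19 control cells, a ratio of 1.37 (0.781 to 2.50), and Vim had 16 and 9 UMIs, a ratio of 1.10 (0.460 to 2.84). With the cut at 5 S100a6 UMIs, which leaves 2 diabetic cells of 33 and 38 Crip1 UMIs in and takes all 8 control cells out, the ratios were 3.12 (1.91 to 5.37) and 1.92 (0.899 to 4.56). In naive-like cells the ratio of Crip1 was 3.06 (1.59 to 6.48), with 33 of 57 diabetic UMIs in 1 cell, and 1.48 (0.697 to 3.34) without that cell. For Vim it was 2.25 (0.811 to 7.70) and 1.49 (0.478 to 5.47). The further lower genes were the class Ib gene H2-Q7 at 0.222 (0.0558 to 0.650), whose near-identical neighbours make its count uncertain, the vesicle fusion gene Vamp8 at 0.213 (0.0402 to 0.729), the adhesion receptor gene Adgre5 (CD97) at 0.307, the early activation gene Cd69 at 0.393 (0.187 to 0.766), Unc93b1, the carrier of endosomal Toll-like receptors, at 0.390 (0.179 to 0.784), and the lysosomal gene Psap at 0.449. These genes too were picked by cells that include the naive-like ones, so their ratios in those are no separate support. In naive-like cells these 6 had ratios from 0.0985 (0.00214 to 0.812, with 1 and 6 UMIs) for Adgre5 to 0.364 for Cd69, and Unc93b1 one of 0.118 (0.0219 to 0.418). Macrophage and monocyte genes moved with them there, with 6 diabetic and 133 control UMIs in naive-like cells, most of them in 2 control cells. In naive-like cells with under 3 macrophage marker UMIs, 17 diabetic and 10 control ones, Unc93b1 stood at 0.211 (0.0351 to 0.923), Cd69 at 0.268 (0.0814 to 0.791) and Psap at 0.491 (0.0915 to 2.64), with 4 UMIs in each library.

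**Figure D5:**
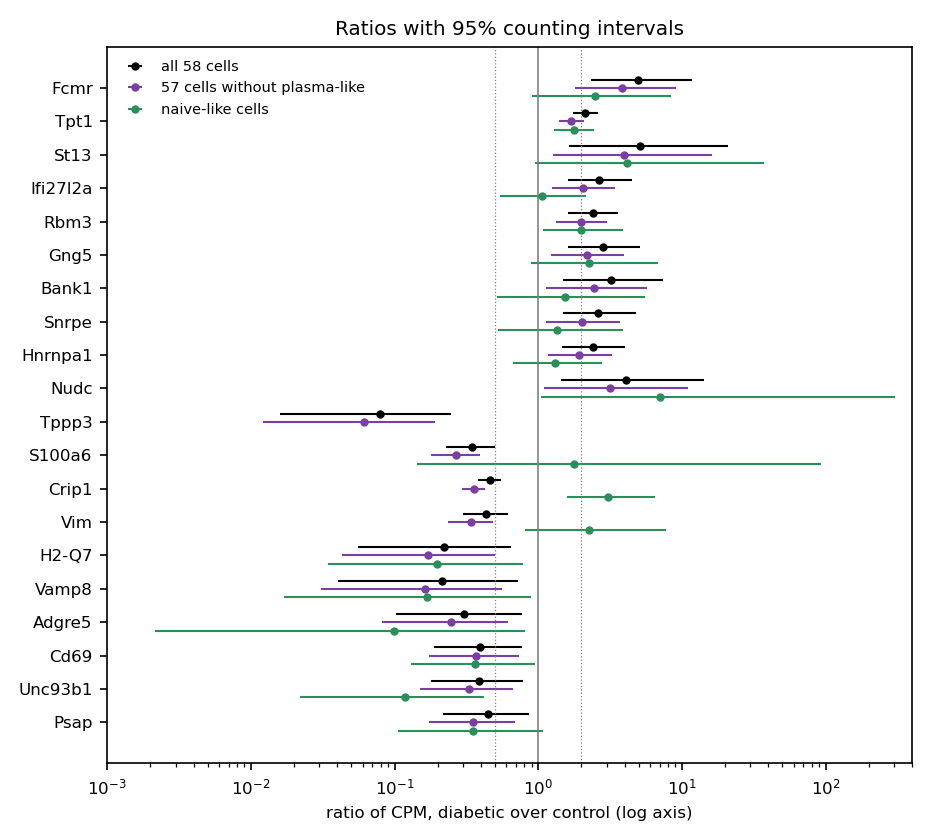
Ratio of CPM, diabetic over control (x, log axis), with 95% counting intervals for the 20 named genes in all 58 cells, in the 57 cells without the plasma-like one and in naive-like cells; a gene with 0 UMIs in a library is left out of that set. The grey lines mark 0.5, 1 and 2. Crip1 and Vim lie left of 1 in 58 and 57 cells and right of it in naive-like cells, where 1 diabetic cell holds 33 of 57 Crip1 UMIs.

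Few genes of the B cell programme were past 2-fold, and with lists of 15 genes or fewer 1 or 2 genes are near the 12.5% higher and 8.04% lower over all genes. Of the 14 measured surface genes, 1 was higher, Ighd at 2.11 (1.17 to 3.88), and 1 lower, the inhibitory Fc receptor gene Fcgr2b. Fcgr2b had 1 UMI in the diabetic library and 10 UMIs in the control library, a ratio of 0.128 (0.00294 to 0.898). In 57 cells Ighd was not past 2-fold and Fcgr2b was still lower. Of 12 transcription factor genes 1 was higher, Foxo1, with 9 and 5 UMIs, of which 1 cell in each library held most. Ebf1, which specifies the lineage, had 100 UMIs in 27 diabetic and 65 UMIs in 21 control cells, a ratio of 1.97 (1.42 to 2.73) and of 1.51 (1.09 to 2.10) in 57 cells. Of 7 receptor signalling genes 2 were higher, the kinase gene Syk with 8 and 5 UMIs and the phosphatase gene Inpp5d with 15 and 8, and none in 57 cells. The median log2 ratio of these lists was 0.11, 0.15 and 0.47, beside 0.22 over all genes, and in 57 cells -0.24, -0.18 and 0.09, beside -0.08. The share of these genes past 2-fold was near that of all genes.

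Of the genes of antigen presentation, the class II count was near the share of all genes, while class I genes were more often lower. Over all genes 12.5% were higher and 8.04% lower, and in 57 cells 6.92% and 12.9%. The same 3 of 10 class I genes were lower in 58 and in 57 cells, though 10 genes are few for such a share. Of 10 measured class II genes 1 was higher, H2-Oa, a modulator of peptide loading, with 28 UMIs in 18 diabetic and 14 in 9 control cells, and in 57 cells none was past 2-fold, with a median log2 ratio of -0.01. Cd74 had 28621 CPM in diabetic and 26343 CPM in control cells, a ratio of 1.09 (1.02 to 1.15) that became 0.852 (0.802 to 0.906) in 57 cells. H2-Aa had a ratio of 1.40 (1.23 to 1.58), and of 1.08 (0.951 to 1.22) in 57 cells. Of 10 measured class I genes 3 were lower and none higher, namely H2-Q7, H2-T23 and the peptide-loading gene Tapbp at 0.197 (0.0215 to 0.868), with a median log2 ratio of -0.38 beside 0.22 over all genes, and -0.58 beside -0.08 in 57 cells. B2m, the light chain of class I molecules, had 191 UMIs in all 30 diabetic and 323 UMIs in all 28 control cells, a ratio of 0.755 (0.628 to 0.906) and of 0.697 (0.576 to 0.842) in 57 cells.

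Of 9 measured costimulatory and survival genes 2 were lower, Cd69 and the interferon gamma receptor gene Ifngr1 (4 and 14 UMIs), and none higher, with a median log2 ratio of -0.78, beside 8.04% lower and 12.5% higher over all genes. In 57 cells 4 were lower, beside 12.9% over all genes, the further ones being the BAFF receptor gene Tnfrsf13c at 0.470 (0.207 to 1.00) and the antiapoptotic gene Bcl2a1b at 0.427 (0.181 to 0.933). Cd83, a marker of activated B cells, had 45 UMIs in 22 diabetic and 86 UMIs in 20 control cells, a ratio of 0.668 (0.455 to 0.970). Of 8 homing genes 2 were higher, the lymphoid egress receptors S1pr1 with 8 and 3 UMIs and S1pr4 with 8 and 4, and 1 lower, the integrin gene Itgb2 with 2 and 9. Of 12 cytokine genes none reached 10 UMIs, and Il10 and Il6 had no UMI in either library. Germinal centre and memory genes were also close to absent, with 8 and 12 UMIs over 11 genes present in the files.

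For AP-1, the Fos and Jun complex the series is about, 4 of 7 subunits reached 10 UMIs in B Cells, 2 were lower and none higher, and 1 control cell held much of the difference. Fos had 8 UMIs in 6 diabetic and 35 UMIs in 6 control cells, a ratio of 0.292 (0.117 to 0.641), and 26 of the 35 lay in 1 of the 8 cells with 5 or more S100a6 UMIs. Fosb had a ratio of 0.206 (0.0625 to 0.534), with 9 of 31 control UMIs in the same cell. Junb had 26 and 23 UMIs, a ratio of 1.44 (0.792 to 2.65), and Jund one of 0.672 (0.279 to 1.52). Summed over the subunits, the ratio was 0.566 (0.399 to 0.794) in 58 cells but 1.44 (0.750 to 2.89) in naive-like cells, where the interval held 1, so no direction was read. Of 15 other immediate early genes, which also respond to tissue digestion, 2 were higher and 7 lower, beside 12.5% and 8.04% over all genes. Their median log2 ratio was -0.89. In 57 cells 1 was higher and 10 lower, beside 6.92% and 12.9% over all genes. In naive-like cells 2 of 8 were higher and 3 lower, with a median of -0.31, beside 7.24% and 15.3%. Atf3 had 0 UMIs in the diabetic and 45 in 8 control cells, at most 0.0852-fold, and 27 of the 45 lay in that cell. The NF-kappaB inhibitor gene Nfkbia had 37 UMIs in 15 diabetic and 84 UMIs in 22 control cells, a ratio of 0.563 (0.371 to 0.838), and one of 0.387 (0.205 to 0.715) in naive-like cells.

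Smaller lists gave few measured genes. Their counts stand beside 12.5% higher and 8.04% lower over all genes, and beside 6.92% and 12.9% in 57 cells. With so few genes, 1 gene past 2-fold cannot be told from those shares. Of 4 proliferation genes 2 were higher, Hmgb2 and Cenpa, and none in 57 cells, while Mki67 had 2 UMIs in the diabetic and 0 in the control library. Both Mki67 UMIs lay in the diabetic cell of 931 UMIs that had none of the 4 defining markers and 11 UMIs of macrophage markers. Of 3 interferon response genes Ifi27l2a was higher and Ifi203 lower. Of 8 heat shock genes 1 was lower, the co-chaperone gene Dnajb1. Of 3 measured B-1 genes Cd9 was lower, and in 57 cells Plac8 as well, with 70 UMIs in 15 diabetic and 162 UMIs in 18 control cells, a ratio of 0.552 (0.411 to 0.735) that became 0.424 (0.316 to 0.565). Cd9 was also the only measured marginal zone gene. Of 6 naive-like markers Ighd and Fcmr were higher, and in 57 cells Fcmr alone. Both measured early B cell genes, Vpreb3 and Igll1, were higher through the cell described above. Igll1 had no UMI outside that cell, so the cell that made it measured also set its direction, and its place in the count tests nothing. Vpreb3 had 7 diabetic UMIs outside that cell, beside 5 control UMIs. Of 8 immunoglobulin constant genes Ighd was higher and Ighg3, Igha, Igkc and Iglc1 lower, and of 4 plasma genes Jchain was lower. Without the plasma-like cell Ighg3 and Iglc1 were the only ones of these past 2-fold. Igkc then had 541 diabetic and 944 control UMIs, a ratio of 0.563 (0.505 to 0.626). Jchain and Ighg3 had UMIs in 1 control cell each, and Igha had 2 UMIs outside the plasma-like cell. Jchain, Ighg3 and Igha were thus measured and lower through the same 1 cell each, so their place in the counts tests nothing. Glucocorticoid-induced genes gave 1 measured gene, not past 2-fold, and age-associated B cell genes none, with 3 and 6 UMIs.

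Transcripts of other cell types were few in both libraries and uneven in kind. Macrophage markers had 35 UMIs in 7 diabetic cells and 127 UMIs in 15 control cells, with 4 and 5 of 6 markers present, Adgre1 at 0 in both and Csf1r at 0 in diabetic cells. They ranged from 0 to 13 UMIs in a diabetic cell and from 0 to 60 in a control cell, and 2 naive-like control cells with 60 and 51 held most of the control sum. T cell markers had 10 and 9 UMIs, 9 of the 10 in 1 diabetic cell, and granulocyte markers S100a8 and S100a9 were at 0 in both. The longer lists of thymocyte, dendritic, fibroblast, smooth muscle, endothelial and platelet genes summed to 3 to 23 UMIs in diabetic and 4 to 33 in control cells, with no gene past 2-fold, and NK genes to 1 and 32, of which 29 were Ccl5 in 1 control cell. Of 6 measured macrophage genes on the longer list 4 were lower, beside 8.04% over all genes, and in 57 cells 5 of 5, beside 12.9%. The 2 naive-like control cells named above held 39 and 18 of 64 control Lyz2 UMIs and 8 and 11 of 22 of C1qa. The count is thus not read as a result about these genes. Erythroid markers had 91 UMIs in 28 diabetic cells and 8 UMIs in 6 control cells, 0 to 8 and 0 to 2 per cell. Hbb-bs, of beta globin, had 55 UMIs in 27 diabetic and 3 UMIs in 3 control cells, a ratio of 23.4 (7.605 to 117). The part of these transcripts in the gene ratios was not tested beyond leaving out cells with 3 or more UMIs of another lineage.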

How the data were processed

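The deposited files are matrices of raw counts of UMIs for 18155 genes in the diabetic and 18225 in the control library. The submitters' processing notes name Cell Ranger 3.1.0, the mouse build mm10 and Partek. Cells took their class from the authors' deposited tables, 13 classes in all. Barcodes that lack one stayed out, save in the counts over all barcodes and where they are named. No source used here says how barcodes were filtered. A gene not listed in a library's matrix was taken as 0. The number of unused columns was 0.

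The members and all 34 gene lists were chosen with earlier results of these data known. UMIs were summed over B Cells per library and scaled to CPM, with exact Poisson intervals. Shares have exact Clopper-Pearson intervals, and ratios exact conditional binomial ones, all at 95%. UMIs are amplified by PCR and pooled over mice, so intervals cover counting error only. A library count of 0 was set to 3 UMIs for a bound. Shares of cells with a UMI are expected shares after thinning to 1000 UMIs. Named genes were list members, the 15 leading genes, and up to 10 each way with at least 20 UMIs, a 2-fold ratio, an interval excluding 1 and at most 25% of the UMIs in 1 cell, ranked by the interval bound nearest to 1. Mitochondrial, ribosomal protein and haemoglobin genes and gene models were left out of the last group. Cells singled out by S100a6 or Crip1 and the single cells described were chosen after their values were seen. Trimmed mean scaling used edgeR 4.0.16 in R 4.3.3, and the rest Python 3.11.15 with numpy 2.4.6, pandas 2.3.3 and scipy 1.17.1. Intervals were tested on simulated data. No doublets were called, and an alternative left out cells with 3 or more UMIs of another lineage. 1 of the 15 leading genes is not reported here.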

Additional observations from a re-analysis of the deposited data

Results flagged for a closer look

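Barcodes with plasma cell transcripts also lay outside the annotated cells. Barcodes without a class entered the counts over all barcodes but no comparison of transcript levels. Among barcodes without a class, 2 in the diabetic and 1 in the control library had at least 4 plasma markers and 10 or more Jchain UMIs. The diabetic ones held 27469 UMIs with 1770 of Igha, 2740 of Igkc and 532 of Jchain, and 23016 UMIs with 953 of the IgG2b gene Ighg2b, 4232 of Igkc and 33 of Jchain. The control one held 13449 UMIs with 145 of Igha and 126 of Jchain. They also carried 426, 168 and 254 UMIs of macrophage markers, against 1 in the plasma-like cell of the class, and how they arose was not tested. Counting them with the class would give 2 diabetic and 2 control barcodes.

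Of the barcodes without a class, 18 diabetic and 21 control ones had at least 3 of the 4 defining markers, with median depths of 14899.5 and 17821 UMIs.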

How the results depend on the processing

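Of 1443 genes, 181 were higher and 116 lower in diabetic B Cells at 2-fold. The higher count was 111 with trimmed mean scaling, 532 at a minimum of 5 UMIs, 56 at a minimum of 20, 97 without the plasma-like cell, 94 without the tenth of cells with most UMIs and 423 at a fold of 1.5. The lower count was 215 with every cell weighted equally, 300 at a minimum of 5 UMIs, 40 at a minimum of 20, 181 without the plasma-like cell and 233 at a fold of 1.5. In settings chosen after seeing the data, the balance turned: 46 were higher and 97 lower of 635 genes in naive-like cells, 111 and 130 of 1040 without the plasma-like cell and the cells of at least 5 S100a6 UMIs, 86 and 119 of 940 without that cell and those of at least 15 Crip1 UMIs, 38 and 93 of 598 in naive-like cells under that Crip1 count, and 40 and 81 of 555 in naive-like cells with under 3 macrophage marker UMIs. In the same 5 settings the ratio of Crip1 was 3.06, 3.12, 1.37, 1.48 and 2.75, and that of Vim 2.25, 1.92, 1.10, 1.49 and 1.77. The first, second and last of them kept 1 or 2 diabetic cells of 33 and 38 Crip1 UMIs. Without those cells both intervals held 1 in the first and second, and the last was not run without its cell. Because the cells were chosen by their Crip1 count, Crip1 values without them were set in part by that choice. Ifi27l2a stood at 0.723 in naive-like cells under 15 Crip1 UMIs. Other causes were not tested.

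The share difference of 0.274 percentage points became -0.592 by markers over all barcodes, -17.1 over lymphoid classes and, chosen after seeing the data, -0.854 by markers over annotated cells. Mixed light chain cells numbered 8 diabetic and 5 control at 90%, against 4 and 0 at 80%. Counts of naive-like and plasma-like cells did not move with 3 or 6 plasma markers. They could not, since the call needs Jchain and the only cell of the class with it had 11 plasma markers. Of 282 alternative values of named genes with at least 10 UMIs in the setting, 242 stayed within the counting interval, 29 left it and 11 turned direction, those of 3 genes, Crip1, Vim and Ifi27l2a. S100a6 fell below that minimum in the S100a6 setting, where 7 diabetic and 1 control UMIs gave 3.67 (0.471 to 165.3). Of 284 alternative list medians 119 moved, some across 0, as class II did without the plasma-like cell. No paired analysis was possible because each group is 1 library. For the same reason no replicate could be left out. Depth limits the rest: most genes had under 10 UMIs in the class.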
